A study of Homo sapiens with 49 samples.

Results

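The comparison described here is that of BE(2)-C neuroblastoma cells at 48 h and at 24 h after a hairpin RNA against TWIST1 was switched on, over every gene whose mean over the 18 libraries of the hairpin experiment in the unnormalised table was at least 1 FPKM. FPKM are fragments scaled to transcript length and to the mapped fragments of the library, a relative measure and not a count. The 6 libraries, 3 per time, were taken from the 38 libraries of both experiments in the deposited tables by the group their column names give, and 11433 of 23713 listed entries passed the filter. Of these, 138 had a mean under 1 FPKM over the 6 libraries compared. Another 12188 entries were below it and 92 were spike-ins. Among the genes tested, 764 were set apart by their symbols as small or uncharacterised RNAs. These symbols started with a prefix such as MIR, SNOR, LOC, LINC or FLJ, or held orf, -AS or -IT. They can include protein-coding genes, such as those with orf symbols. All 764 were left out wherever genes are named.

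BE(2)-C is an established human neuroblastoma cell line with an amplified MYCN gene and a noradrenergic phenotype. Both groups carried the TET-on, tetracycline inducible hairpin shTWIST1 and both received doxycycline at 0.5 µg/ml, in DMEM with Tetracycline-Free FBS, so that they differed in time alone as far as the labels say. No group with doxycycline but without the hairpin was analysed here, and the labels do not say whether the line is 1 clone or whether replicates came from separate cultures. The p-values therefore measure the spread between these libraries, which may be technical. Cell number was determined before RNA isolation and ERCC spike-ins, synthetic RNAs of known amount, were added when the cells were lysed. The amount of spike-in per cell is stated in none of the labels.

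TWIST1 is a basic helix-loop-helix transcription factor that pairs with E proteins such as TCF3 and binds DNA at E-boxes, CANNTG. In adrenergic neuroblastoma a set of factors including HAND2, GATA3 and MYCN keeps the noradrenergic programme on, in which DBH turns dopamine into noradrenaline, SLC18A2 loads it into vesicles, and granins and neuropeptides are stored and released with it. The cells also carry a neuronal cytoskeleton of neurofilaments and neuron-type tubulin.

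The libraries were alike in their unnormalised values. Pearson's r across genes lay between 0.968 and 0.979 for pairs among the 6. The no-doxycycline library numbered 1, which entered the shared estimate of spread but neither group, stood apart from the other 17, with a median r of 0.955 against them. The defining markers of the labelled cell type were present: the 14 adrenergic core factors summed to 1885 to 1934 FPKM at 24 h and 1734 to 1777 at 48 h. MYCN was the largest part of these sums and of the difference between them. Of the other cell types looked for, the 8 Schwann or glial markers summed to 17.38 to 18.98 and 15.62 to 17.001 FPKM with SOX10, MBP and FOXD3 listed at 0, the 8 blood markers to 1.29 to 1.70 and 1.79 to 2.46 with CD3E among those listed at 0, the 6 endothelial markers to 1.42 to 1.52 and 0.951 to 1.12, and the 8 epithelial markers, mostly KRT19, to 11.7 to 11.8 and 12.9 to 14.5. The 6 fibroblast markers, mostly THY1, summed to 139 to 146 and 131 to 141 FPKM with FAP listed at 0.

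Relative to the spike-ins, almost all transcripts were lower at 48 h than at 24 h. Over genes the median fold was 2.23-fold lower, and 10551 of 11433 genes, or 92.3%, fell on the spike-in scale, which is log2(rescaled FPKM + 1) in limma at an adjusted p under 0.05. Library medians on that scale were 3.73, 3.97 and 3.66 at 24 h and 2.60, 3.15 and 2.09 at 48 h, given here and below in the order of the library numbers 0, 1 and 2. The groups did not overlap. The difference between their means was −1.17, or 2.26-fold (3.78 ± 0.16 against 2.61 ± 0.53, SD, n = 3), with an exact permutation p of 0.1, two-sided, the smallest that 3 against 3 libraries allow. In bulk RNA, fewer cells, less RNA per cell and more spike-in added to the library cannot be told apart.

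Behind this stood the spike-in RNA itself. Its total in the unnormalised table was 35758, 29291 and 35837 FPKM at 24 h and 90085, 57913 and 140361 at 48 h, a ratio of means of 2.86 (exact permutation p = 0.1, two-sided, again the smallest possible). The lowest library at 48 h thus held more spike-in than the highest at 24 h, but the 48 h libraries differed among themselves by more than those at 24 h did (SD 41554 against 3757). Without the library numbered 2 at 48 h the median change was −0.91 and 7520 genes fell, and without the library numbered 1 at 48 h it was −1.44 and 10872 fell. Medians of the other 12 libraries, without doxycycline and at 3, 6 and 12 h, ran from 3.22 to 4.82, so that the 3 libraries at 48 h were the lowest of all 18. On unnormalised values the medians were 3.72 at both times. They lay between 3.715 and 3.723 in the 6 libraries, while the spike-in share of the total ran from 3.57% to 15.5%. Unnormalised values are scaled within each library, so equal medians do not show that the amount of RNA was unchanged.

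**Figure D1:**
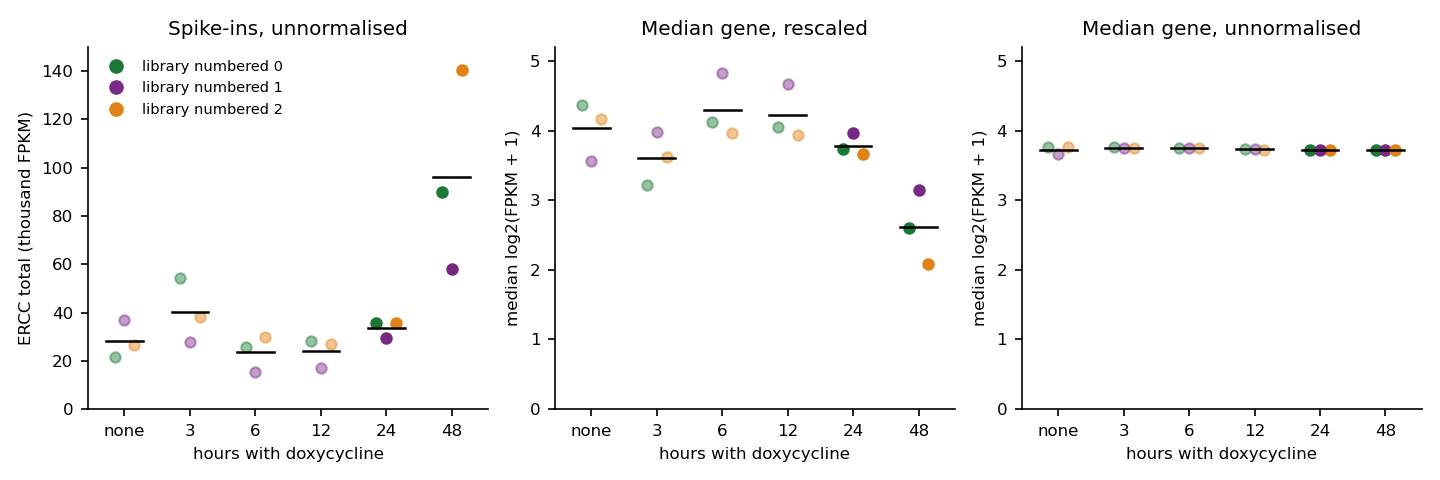
Spike-in total in the unnormalised table (left, FPKM, scaled as on the axis) and library medians of log2(FPKM + 1) over the tested genes in the rescaled (middle) and unnormalised tables (right), by hours with doxycycline. Each point is a library, coloured by its number, and bars are means of 3; the 24 h and 48 h libraries are drawn solid. The 48 h libraries have the highest spike-in totals and the lowest rescaled medians, and the unnormalised medians at 24 h and 48 h are 3.72 in mean.

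On the spike-in scale 14 entries, or 0.122%, rose. All 14 were small nucleolar RNAs or microRNA precursors, which a polyA library is not made to capture, and in none of the 14 did the 3 libraries at 48 h all lie above those at 24 h. No other gene rose. Since none was eligible to be named, 6 entries with a change above 0 are given that did not pass: GSTT2 (change 1.06, adjusted p = 0.052), P2RX6P (0.88), INO80B-WBP1 (0.29), HIST1H2BL (0.10), RPS10-NUDT3 (0.07) and EEF1DP3 (0.03), where the adjusted p of the last 5 was 0.44 or more. GSTT2 and the read-through entries share sequence with neighbours or copies, so that their values depend on how reads were assigned.

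The hairpin target was low at both times. TWIST1 stood at 20.6, 20.4 and 19.2 unnormalised FPKM at 24 h and at 18.9, 17.7 and 17.7 at 48 h. Without doxycycline it stood at 64.9 ± 8.69 (SD, n = 3), a mean that includes the library numbered 1 that stood apart. The groups do not overlap, yet the change of −0.14 ± 0.11 (SE) on unnormalised values did not pass (adjusted p = 0.63), nor did that of −0.22 after centring (adjusted p = 0.13). On rescaled values TWIST1 fell, from 20.5, 24.3 and 18.5 to 7.65, 11.2 and 4.60 FPKM (change −1.39 ± 0.34 SE, adjusted p = 0.0029), as the median gene did.

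To see which genes moved against the rest, the library median was taken off the log2 rescaled values (the centred scale). There 1801 genes were called higher, 15.8% of those tested, and 831 lower, 7.27%. These calls went with the expression level: the median centred change was 0.61 for genes under 2 FPKM, 0.02 for those of 8 to 16 FPKM and −0.21 for those of 64 to 128 FPKM. With a pseudocount of 0.1 in place of 1 the same medians were 0.28, 0.01 and −0.09 and the calls 138 higher and 139 lower. The gradient was thus smaller with the smaller pseudocount. The deposited rescaling also differed with level: at 48 h the median log2 ratio of rescaled to unnormalised values was −1.04, −0.45 and −1.57 for genes under 2 FPKM and −1.35, −0.71 and −1.98 for those of 64 FPKM or more.

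On unnormalised values the change had no such gradient, with medians between −0.02 and 0.02 over 8 level classes. The same limma fit called 154 genes higher there, 1.35% of those tested, and 210 lower, 1.84%, and 1775 genes had an unadjusted p under 0.05. In 99.3% of genes other than small or uncharacterised RNAs the change was within 0.5 of 0 (log2). Only 102 of the genes called higher on the centred scale, 5.66%, and 127 of those called lower, 15.3%, were called in the same direction on unnormalised values, and 2 were called in opposite directions. In what follows "rose" and "fell" mean a call on unnormalised values, a change against the other genes of the library; this reading was chosen after the gradient had been seen. Relative to the spike-ins the genes described below as having risen were themselves lower in mean at 48 h.

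Both counts depended on the libraries that set the spread. With the 24 h and 48 h libraries alone, 612 genes were higher (5.35%) and 714 lower (6.25%), holding 145 of the 154 and 195 of the 210. Without the no-doxycycline library numbered 1, 981 were higher (8.58%) and 1233 lower (10.8%), holding all 154 and all 210. Leaving out any 1 of the 6 compared libraries left 46 to 62 higher and 58 to 102 lower, and 35 and 44 genes were called in each of those 6 fits.

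**Figure D2:**
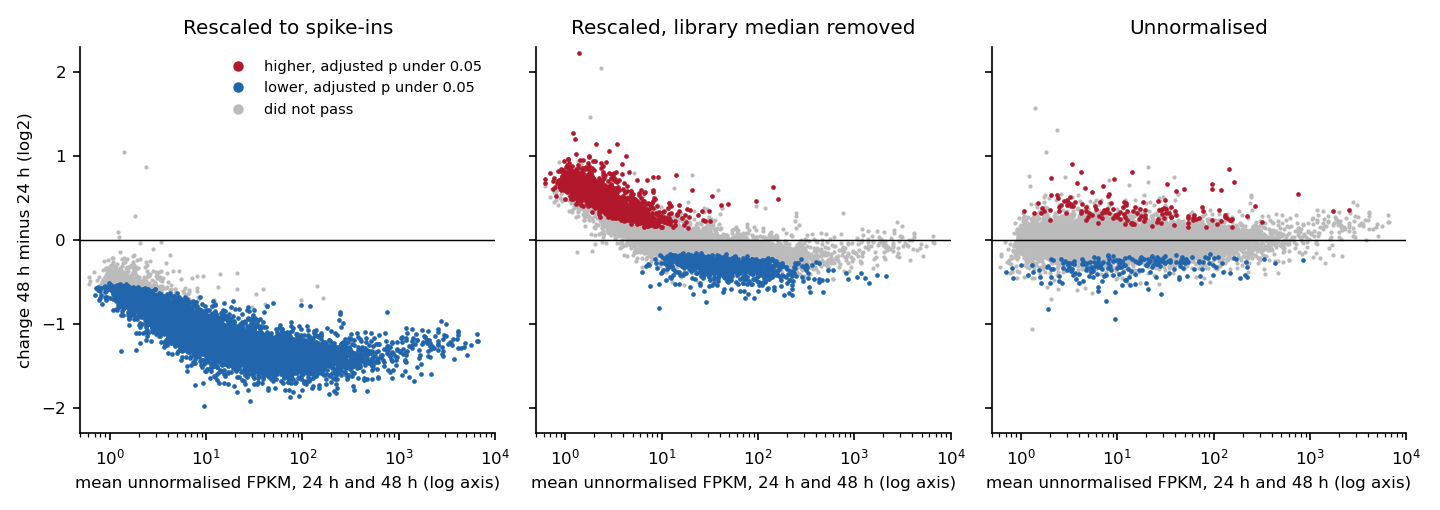
Change from 24 h to 48 h (log2, vertical) against mean unnormalised FPKM (horizontal, log axis), on rescaled, centred and unnormalised values. Tested genes other than small or uncharacterised RNAs are drawn. Red and blue mark genes called higher or lower; HBB and RPS10-NUDT3, under 0.5 FPKM in these 6 libraries, lie outside the axis. Nearly all genes are below 0 on rescaled values, the centred values slope with level, and the unnormalised values lie around 0.

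Of 15 tested members of the list for catecholamine synthesis, storage and granins, 6 rose and 1 fell, against 1.35% and 1.84% of all genes, while the list's median change was 0.02 beside 0.00 over all genes. DBH stood at 117.9, 128.3 and 124.7 unnormalised FPKM at 24 h and at 188, 213.1 and 202.9 at 48 h (change 0.70 ± 0.09 SE, adjusted p = 0.00087). SLC18A2, the vesicular monoamine transporter, went from 6.51, 6.78 and 6.99 to 11.2, 12.1 and 12.2 FPKM (0.73 ± 0.11, adjusted p = 0.0030). In both, all libraries at 48 h lay well above those at 24 h, and both kept their call on the centred scale (adjusted p = 0.017 and 0.00097) and in each fit that left out a library. Their rescaled levels did not rise: DBH averaged 129 FPKM at 24 h and 85.1 at 48 h, and SLC18A2 7.15 and 5.33, changes of −0.69 and −0.42 that did not pass (adjusted p = 0.079 and 0.21).

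The granin CHGB went from 234, 228 and 227 to 284, 328 and 301 FPKM (0.40 ± 0.07 SE, adjusted p = 0.010), and SCG5, a chaperone of prohormone convertase, from 27.8, 23.3 and 26.8 to 37.2, 37.0 and 35.6 (0.48, adjusted p = 0.021). SCG3 and the noradrenaline reuptake transporter SLC6A2 rose by less, 0.16 and 0.15, close to the threshold (adjusted p = 0.049 and 0.043). CYB561, which supplies the vesicles with electrons for DBH, fell from 348, 370 and 350 to 300.5, 318 and 293 FPKM (−0.23, adjusted p = 0.037). The enzymes upstream of DBH did not pass: TH averaged 59.7 and 59.0 FPKM, and DDC 209 and 225 (adjusted p = 0.98 and 0.52). CHGA, the most abundant granin of the list, averaged 1743 and 1674 FPKM (adjusted p = 0.91). On the centred scale SCG5 kept its call (adjusted p = 0.044) and CHGB (0.27), SCG3 (0.74) and SLC6A2 (0.54) did not, the last 2 with a change below 0. On rescaled values all 4 fell, as 13 of the 15 members did. With 1 library left out, CHGB kept its call on unnormalised values in 5 of the 6 fits and SCG5 in 1. SCG3, SLC6A2 and CYB561 kept theirs in none (adjusted p up to 0.19, 0.17 and 0.15).

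The peptides GAL (galanin) and NPY (neuropeptide Y) rose as well. GAL went from 77.2, 75.3 and 69.6 to 117, 118 and 119 FPKM (0.67 ± 0.13 SE, adjusted p = 0.015) and NPY from 101, 95.8 and 88.2 to 136, 158 and 138 (0.59 ± 0.13, adjusted p = 0.027). The groups were well apart in both. Neither kept its call when any 1 of the 6 libraries was left out (adjusted p up to 0.065 and 0.11), while with the 24 h and 48 h libraries alone both passed (0.0026 and 0.010). On the centred scale GAL passed (adjusted p = 0.039) and NPY did not (0.086), and on rescaled values both means were lower at 48 h.

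Because DBH and SLC18A2 rose together and are steps of a single pathway, the bases before their start sites are shown, beside those of HS6ST1, which fell in every fit. Each is the 250 bases upstream of the start in the gene's direction, from RefSeq on GRCh38.p14, at chr9:133636113-133636362 (DBH, plus strand), chr10:117240864-117241113 (SLC18A2, plus strand) and chr2:128318869-128319118 (HS6ST1, minus strand), with matches to the E-box CANNTG in capitals; the motif reads the same way on both strands.
DBH: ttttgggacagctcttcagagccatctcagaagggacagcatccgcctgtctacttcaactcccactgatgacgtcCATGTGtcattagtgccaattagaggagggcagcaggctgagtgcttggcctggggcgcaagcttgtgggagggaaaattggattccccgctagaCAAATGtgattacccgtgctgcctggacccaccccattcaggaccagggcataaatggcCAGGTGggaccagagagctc
SLC18A2: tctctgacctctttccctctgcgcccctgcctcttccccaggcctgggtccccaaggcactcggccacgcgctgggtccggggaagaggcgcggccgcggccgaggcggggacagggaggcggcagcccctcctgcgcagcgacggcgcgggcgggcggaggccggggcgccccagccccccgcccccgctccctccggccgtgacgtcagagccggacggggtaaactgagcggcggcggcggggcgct
HS6ST1: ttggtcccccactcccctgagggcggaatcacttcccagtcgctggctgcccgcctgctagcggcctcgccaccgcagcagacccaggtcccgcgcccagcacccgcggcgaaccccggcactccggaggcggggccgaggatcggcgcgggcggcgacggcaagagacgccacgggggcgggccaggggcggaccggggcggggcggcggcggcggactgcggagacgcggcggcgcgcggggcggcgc
The DBH window holds 3 matches, starting 174, 79 and 20 bases before the start site, and the windows of SLC18A2 and HS6ST1 hold none. DBH is also the window with the lowest GC content, 55.6% against 78.8% and 80.4%. Of the 11433 tested genes 8343 have a window in the RefSeq table, and 52.0% of those hold at least 1 CANNTG, beside 53.1% of 113 windows of genes that rose and 46.5% of 142 of genes that fell. Among all 35116 windows 61.8% hold the motif. The palindrome CACGTG, a subset of CANNTG, was in 7.96% and 5.63% of the windows of genes that rose and fell and in 9.34% of those of tested genes. A match is a string of letters and not a bound site.

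**Figure D3:**
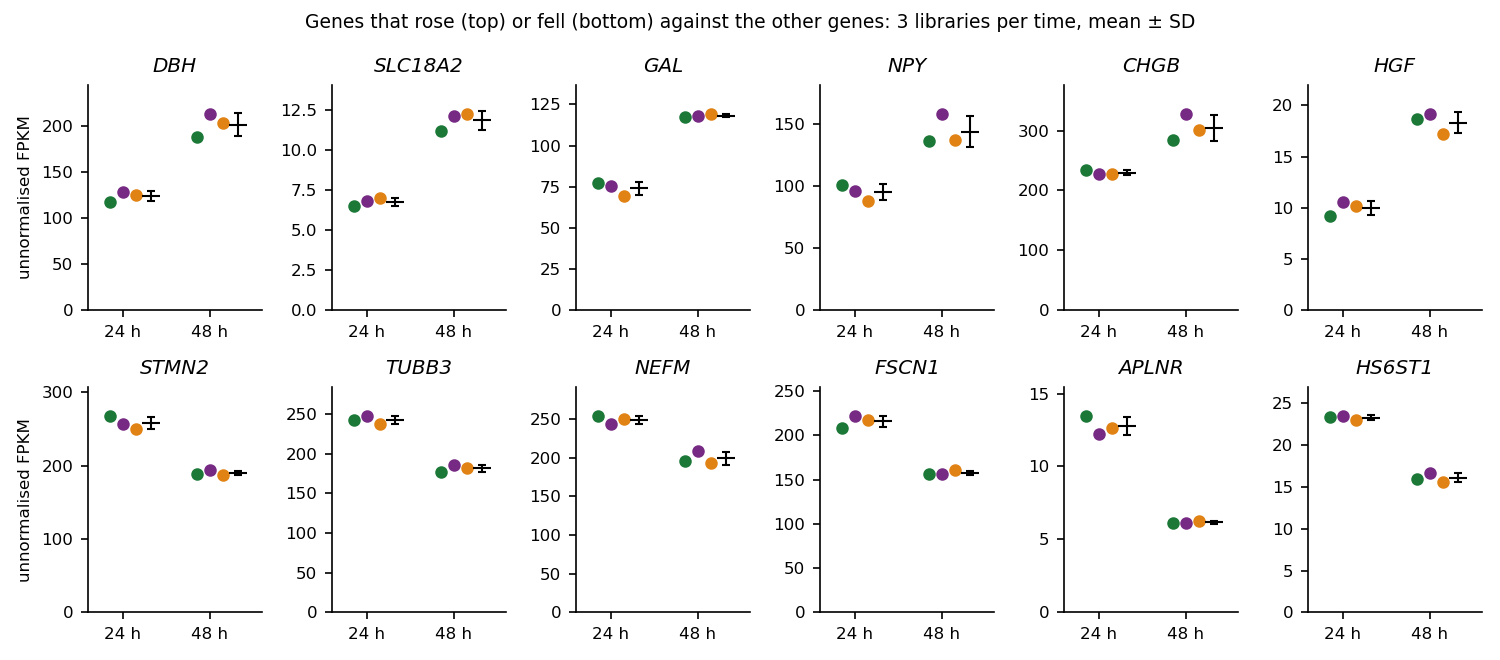
Unnormalised FPKM (vertical, from 0) in the 3 libraries at 24 h and the 3 at 48 h for 6 genes that rose and 6 that fell on that scale; points are libraries coloured by number as in the plot of spike-in totals, and black marks are means ± SD. In each of the 12 genes the groups are apart; on rescaled values the means of all 12 were lower at 48 h.

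Other genes among the largest rises follow, each for itself. HGF, the ligand of the MET receptor, went from 9.17, 10.6 and 10.2 to 18.7, 19.2 and 17.2 FPKM (0.82 ± 0.13 SE, adjusted p = 0.0044), the largest rise by the naming rule after MTRNR2L8. MTRNR2L8 is a near-copy of mitochondrial ribosomal RNA, and its value of 102 FPKM at 24 h and 184 at 48 h depends on how reads were assigned. The muscarinic receptor CHRM1 went from 4.13, 4.31 and 4.21 to 6.15, 6.78 and 7.43 FPKM (0.57, adjusted p = 0.0015) and the sphingosine-1-phosphate receptor S1PR3 from 6.49, 6.23 and 6.67 to 9.84, 9.31 and 9.99 (0.52, adjusted p = 0.0048). HTR3A, a serotonin-gated channel subunit, averaged 3.41 and 5.77 FPKM (0.62), the potassium channel KCNJ2 2.84 and 5.70 (0.81), and the endothelin receptor EDNRA 9.84 and 13.9 (0.46). All 6 also passed on the centred scale, with adjusted p between 0.00097 and 0.0096, but calls on that scale went with level. Small or uncharacterised RNAs aside, 301 of 1780 genes of 4 to 8 FPKM and 67 of 2151 of 8 to 16 FPKM were called higher there. On rescaled values each mean was lower at 48 h, with HGF, CHRM1, S1PR3, HTR3A and KCNJ2 not passing. EDNRA passed in none of the fits that left out 1 library (adjusted p up to 0.13). HGF, CHRM1 and S1PR3 passed in all 6, HTR3A in 5, KCNJ2 in 4 and MTRNR2L8 in 2.

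SLC2A1, the GLUT1 glucose transporter, rose from 36.8, 38.2 and 41.6 to 58.2, 57.7 and 62.8 FPKM (0.60 ± 0.06 SE, adjusted p = 9.1e-05), the smallest adjusted p among the rises named here. It was the 1 riser of 26 tested genes for glycolysis and hypoxia, and PFKP, the platelet-type phosphofructokinase, the 1 that fell (8.48 to 6.05 FPKM, −0.43, adjusted p = 0.019). Of all genes 1.35% rose and 1.84% fell, and the list's median change was 0.04. IGFBP5, which binds insulin-like growth factors, averaged 32.8 and 49.6 FPKM (0.58, adjusted p = 0.010). In the BMP and TGF-beta list the inhibitory SMADs SMAD7 (4.43 to 5.80 FPKM, 0.32) and SMAD6 (17.2 to 21.5, 0.30) rose, with adjusted p of 0.010 and 0.025. They were 2 of 10 tested, beside 1.35% of all genes, and the median change of that list was 0.06. FGFR2 was the 1 receptor tyrosine kinase of 10 tested to rise (2.497 to 4.006 FPKM, 0.52, adjusted p = 0.010), beside 1.35% of all genes. The median change of the 10 was 0.11. With 1 library left out, SLC2A1 and FGFR2 kept their calls in all 6 fits, IGFBP5 in 5, SMAD7 in 4, PFKP in 2 and SMAD6 in 1. Relative to the spike-ins the mean of each of these genes was lower at 48 h.

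Of 19 tested neurite and synapse genes 5 fell and 1 rose, beside 1.84% and 1.35% of all genes, 13 did not pass, and the median change was −0.12 beside 0.00 over all genes. With the 24 h and 48 h libraries alone 8 fell and 3 rose, beside 6.25% and 5.35% of all genes. STMN2, a growth cone protein that binds tubulin, went from 268, 257 and 251 to 189, 194 and 188 FPKM (−0.44 ± 0.04 SE, adjusted p = 0.00010). TUBB3, neuron-type tubulin, went from 242, 247 and 238 to 177, 186 and 182 (−0.41 ± 0.10, adjusted p = 0.035). The neurofilament subunits NEFM (249 to 199 FPKM, −0.32) and NEFL (108 to 87.9, −0.29) and the RNA-binding protein ELAVL3 (29.3 to 24.1, −0.27) fell too, with adjusted p of 0.011, 0.013 and 0.039. The riser was SNAP25 of the vesicle fusion machinery, from 27.7 to 33.4 FPKM (0.26, adjusted p = 0.034), which on rescaled values fell. All 5 that fell were also called lower on the centred scale. On the spike-in scale they were lower with changes of −1.55 to −1.82, where 92.3% of all genes were called lower. STMN2 held in every fit that left out a library, whereas TUBB3 and ELAVL3 held in none of the 6 (adjusted p up to 0.13 in both). NEFM and NEFL held in 3 and the riser SNAP25 in 1.

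Outside the list, FSCN1, which bundles actin filaments, went from 209, 222 and 217 to 157, 156 and 161 FPKM (−0.45 ± 0.08 SE, adjusted p = 0.0068). The kinesin-associated protein KIFAP3 (8.27 to 5.62 FPKM, −0.49, adjusted p = 0.00040), the potassium channel KCNH2 (83.4 to 61.6, −0.43, adjusted p = 0.0014) and the secretase BACE1 (14.7 to 10.3, −0.47, adjusted p = 0.0011) fell with it. Each of the 4 was lower on unnormalised and centred values and in every fit that left out a library. Each was lower on the spike-in scale too, as were 92.3% of all genes.

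The steepest fall was that of APLNR, the apelin receptor, from 13.4, 12.3 and 12.7 to 6.14, 6.10 and 6.25 FPKM (−0.94 ± 0.06 SE, adjusted p = 4.8e-06); on rescaled values it was also the first of 10015 eligible falls, with −1.98. LYL1, a helix-loop-helix factor of the blood and endothelial lineages, went from 10.7, 9.61 and 8.93 to 5.96, 5.18 and 5.39 FPKM (−0.72, adjusted p = 0.0046), and EGFL7, a secreted factor known from endothelium, from 34.1, 38.8 and 33.2 to 20.8, 24.5 and 21.6 (−0.64, adjusted p = 0.024). The endothelial marker CDH5 moved with them, from 1.01 to 0.60 FPKM (−0.33, adjusted p = 0.046), though at this low level the centred scale called it higher (0.53, adjusted p = 0.039). PECAM1, KDR, TEK and VWF were near 0, at means of 0.077, 0.012, 0.012 and 0.027 FPKM at 24 h and 0.063, 0.0033, 0.012 and 0.038 at 48 h. The part of other cells in these falls was not tested. EGFL7 and CDH5 held in none of the 6 fits without 1 library (adjusted p up to 0.11 and 0.17), and APLNR and LYL1 held in all 6.

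HS6ST1, which adds 6-O-sulfate to heparan sulfate chains, went from 23.4, 23.5 and 23.0 to 15.9, 16.7 and 15.7 FPKM (−0.51 ± 0.04 SE, adjusted p = 1.3e-05). The WNT antagonist DKK1 (14.3 to 9.97 FPKM, −0.48), the kinase SGK1 (13.3 to 8.91, −0.53), complement component C7 (18.1 to 12.4, −0.52), the tetraspanin CD9 (51.1 to 37.4, −0.44), BAALC (16.4 to 11.1, −0.53) and the matrix protein MFAP4 (7.83 to 4.83, −0.60) fell by like amounts, with adjusted p between 0.00017 and 0.0023. These 7 were lower on unnormalised and centred values and in each fit that left out a library. They were lower on the spike-in scale too, as were 92.3% of all genes. In the list for extracellular matrix and integrins, COL18A1 (13.1 to 10.5 FPKM) and TIMP2 (59.2 to 49.3) fell, 2 of 19 tested, beside 1.84% of all genes. The median change of that list was −0.01. With 1 library left out COL18A1 kept its call in all 6 fits and TIMP2 in 2. Of 11 tested EMT and mesenchymal genes none passed on unnormalised values in limma. An unadjusted p under 0.05 was found for 3, 1 with a change above 0, beside 1775 of all 11433 genes. With the 24 h and 48 h libraries alone 2 were lower, beside 6.25% of all genes. LGALS1 was the most abundant, at 549, 541 and 512 FPKM at 24 h and 402, 405 and 410 at 48 h (−0.40, adjusted p = 0.23; 0.0049 with those 6 libraries alone), and VIM averaged 85.9 and 97.6 (adjusted p = 0.29).

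Centring takes the same amount off the change of every gene, so the falls rank alike on the spike-in and centred scales by construction. The rule named APLNR, EGFL7, CCDC124, GUK1, FSCN1, STMN2, KIAA0125, PPP1R14B, TUBB3 and LGALS1 on the spike-in scale, with changes of −1.98 to −1.79 and an adjusted p of 0.0029 in each. The centred scale added S100A11, EPN1, CBWD3, KCNH2 and IMPDH1, with −0.61 in each case beside −0.81 for APLNR. Of these 15, GUK1, PPP1R14B, LGALS1, S100A11 and CBWD3 did not pass on unnormalised values (adjusted p of 0.064 to 0.23), and CBWD3 has near-identical copies. Among the 15 centred rises HGF, SLC18A2, SMTNL2, FRMD6, S1PR3, PDE4B, BCL2L12, ATF5, MTRNR2L8 and MTRNR2L2 also rose on unnormalised values, and FRAS1, ALDH6A1, FOSL2, RAPGEF5 and MTRNR2L10 did not pass there (adjusted p of 0.053 to 0.18). None of the 15 had a rescaled mean above that at 24 h.

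MYCN, the driver of this line, fell slightly against the rest, from 930, 927 and 915 to 796, 772 and 785 unnormalised FPKM (−0.24 ± 0.05 SE, adjusted p = 0.012). The groups were apart by far more than their spread. Relative to the spike-ins MYCN went from 892, 1082 and 882 to 306, 463 and 197 FPKM (−1.64 ± 0.35, adjusted p = 0.0029). HAND2 went from 180, 169 and 176 to 150, 145 and 159 unnormalised FPKM (−0.21, adjusted p = 0.048). MYCN and HAND2 were the 2 of 12 tested adrenergic core factors that fell, beside 1.84% of all genes. No member rose, and the median change was −0.01. With the 24 h and 48 h libraries alone 3 of the 12 fell, beside 6.25% of all genes. In 4 of the 12 the 3 libraries at 48 h all lay below those at 24 h, beside 18.1% of all genes. In 1 they all lay above, beside 15.9%. Values are given here for 10 of the 12. The member that fell beside MYCN and HAND2 with the 6 libraries alone is not among these 10. PHOX2A (230 and 250 FPKM), GATA2 (282 and 281), GATA3 (66.9 and 68.2), ISL1 (44.5 and 44.1), TBX2 (50.7 and 48.4), TFAP2B (38.1 and 37.2), KLF7 (13.2 in both) and LMO1 (1.83 and 1.90) did not pass, with adjusted p from 0.715 (PHOX2A) upward. On rescaled values all 12 fell. MYCN lost its call on unnormalised values in 3 of the 6 fits without a library (adjusted p up to 0.060) and HAND2 in all 6 (up to 0.19).

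Of 34 mitosis and spindle genes 3 fell on unnormalised values, none rose and 31 did not pass, with a median change of −0.17 beside 0.00 over all genes; 33 of the 34 changes were below 0, and in 25 members the 3 libraries at 48 h all lay below those at 24 h, beside 18.1% of all genes. The count rested on the spread used: 15 of 34 fell with the 24 h and 48 h libraries alone, beside 6.25% of all genes. CDK1, the mitotic kinase, went from 101, 102 and 90.3 to 83.1, 83.9 and 74.5 FPKM (−0.28, adjusted p = 0.021). The spindle proteins DLGAP5 (53.3 to 42.2 FPKM, −0.33) and KIF23 (34.8 to 28.6, −0.27) were the others of the 3, beside 1.84% of all genes that fell. With 1 library left out CDK1 kept its call in 2 of the 6 fits, DLGAP5 in 1 and KIF23 in none. Of 34 replication genes 2 fell, beside 1.84% of all genes, and 6 with the 6 libraries alone, beside 6.25%. The 2 were RRM2 of ribonucleotide reductase (182 to 156 FPKM, −0.23, adjusted p = 0.0089) and CCNE1 (6.40 to 5.18, −0.26, adjusted p = 0.041). RRM2 kept its call in 5 of the 6 fits with 1 library left out and CCNE1 in none. The median change of that list was −0.03.

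Cytosolic ribosomal protein genes lay on the other side. None of the 30 listed passed in limma on unnormalised values, and 7 had an unadjusted p under 0.05, beside 1775 of all 11433 genes. Yet all 30 changes were above 0 with a median of 0.20, and in 27 the groups did not overlap upward (15.9% of all genes). With the 24 h and 48 h libraries alone 18 were higher, beside 5.35% of all genes. RPS6 stood at 1861, 1774 and 1723 FPKM at 24 h and 2211, 2268 and 2282 at 48 h (0.34, adjusted p = 0.13), and RPLP1, with the smallest change, averaged 3763 and 3770. Outside the list RPL13A rose, from 646, 584 and 613 to 886, 889 and 920 FPKM (0.55, adjusted p = 0.028), and so did RPL22L1 (76.2 to 117, 0.61, adjusted p = 0.028). Neither kept its call when any 1 of the 6 libraries was left out (adjusted p up to 0.12 and 0.11). Ribosomal protein genes have many processed pseudogenes, which can share reads with them. Relative to the spike-ins all 30 fell, with a median of −1.21. On the centred scale their median was −0.036 and none passed, where genes of 128 FPKM or more had a median of −0.20. Ribosome assembly factors (median −0.04), mitochondrial ribosomal proteins (0.00) and oxidative phosphorylation subunits (0.01) held 0, 1 and 0 of 30, 26 and 30 members that passed, the 1 being MRPS14, which fell. Of all genes 1.84% fell and 1.35% rose, and MRPS14 kept its call in 2 of the 6 fits with 1 library left out. In the lists with none, 1 member each had an unadjusted p under 0.05.

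Replication histone genes, which supply the chromatin of dividing cells, had the highest median of the lists with at least 8 tested members, 0.25 on unnormalised values. None of the 13 tested passed in limma. At an unadjusted p under 0.05, 5 were higher, beside 1775 of all 11433 genes in either direction. With the 24 h and 48 h libraries alone 4 were higher, beside 5.35% of all genes. HIST1H2BC stood at 1.69, 2.12 and 1.77 FPKM at 24 h and at 3.99, 4.49 and 3.02 at 48 h (0.75, adjusted p = 0.087), and HIST2H2AA3 at 38.1, 34.6 and 30.7 and at 54.1, 46.0 and 52.3 (0.55, adjusted p = 0.0785). HIST1H2BK averaged 123 and 153 FPKM (0.31, adjusted p = 0.11). Histone genes are near-identical and mostly lack a polyA tail, so these values depend on how reads were assigned and captured. On rescaled values 11 of the 13 fell. In the list for MHC class I presentation 1 of 9 rose, beside 1.35% of all genes. It was the peptidase ERAP1 (3.99 to 5.58 FPKM, 0.40, adjusted p = 0.029), which lost its call without any 1 library (adjusted p up to 0.12). With the 6 libraries alone 3 of the 9 were higher, beside 5.35% of all genes, and the list's median change was 0.11.

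Sterol and fatty acid synthesis held 2 of 29 that fell, HMGCS1 (36.1 to 26.7 FPKM, −0.42, adjusted p = 0.031) and SQLE (77.3 to 65.2, −0.24, adjusted p = 0.0498), with a median of −0.09. With the 6 libraries alone 7 were lower, beside 6.25% of all genes. HMGCS1 and SQLE kept their calls in none of the 6 fits with 1 library left out. Proteasome subunits (1 of 30 fell, PSMD11) and splicing factors (0 of 33, with 5 lower at an unadjusted p under 0.05) had medians of −0.08 and −0.09. The integrated stress response (1 of 20 rose, ATF5, 5.17 to 6.95 FPKM), the p53 list (0 of 19, with 4 higher at an unadjusted p under 0.05), the heat shock list (0 of 19, with 2 lower) and endoplasmic reticulum chaperones (0 of 20, with 3 higher) had medians from 0.02 to 0.09. With 1 library left out, PSMD11 kept its call in all 6 fits and ATF5 in none. Of all 11433 tested genes 1775 had an unadjusted p under 0.05 in either direction. Over the 42 lists together 708 distinct members were tested, of which 16 rose (2.26%, beside 1.35% of all genes) and 25 fell (3.53%, beside 1.84%) on unnormalised values. On the spike-in scale 673 were lower, beside 92.3% of all genes, and none higher.

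**Figure D4:**
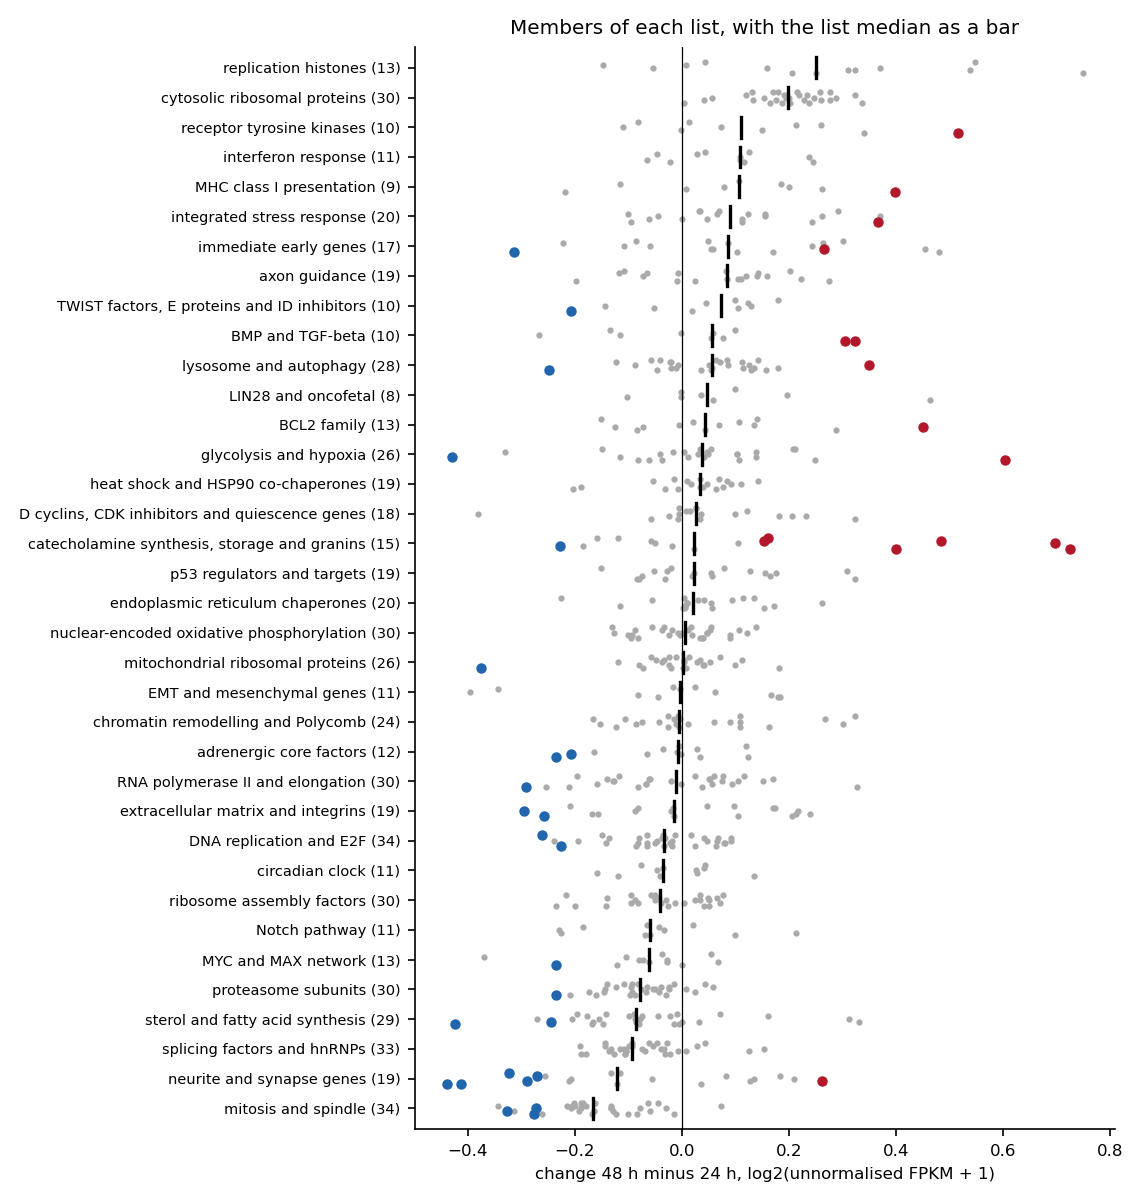
Change from 24 h to 48 h on log2(unnormalised FPKM + 1) (horizontal) for the members of the lists with at least 8 tested genes (number in brackets), ordered by their median (bar). Grey points did not pass, red rose and blue fell. Ribosomal protein genes and replication histones have the highest medians, mitosis and neurite genes the lowest, and the catecholamine list has the most genes that rose; on rescaled values nearly all these genes were lower.

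The course over the whole experiment placed these changes, as a description in which the 24 h libraries serve as reference. Without doxycycline and at 3, 6, 12, 24 and 48 h DBH averaged 96.1, 89.4, 83.01, 99.1, 124 and 201 unnormalised FPKM, and SLC18A2 4.05, 4.42, 4.43, 4.29, 6.76 and 11.8. HGF averaged 5.003, 5.16, 5.38, 6.18, 9.98 and 18.3. These genes were thus above their level without doxycycline at 24 h and further above it at 48 h. STMN2 averaged 473, 460, 457, 387, 258 and 190 FPKM over the same times, HS6ST1 47.1, 44.99, 39.5, 33.4, 23.3 and 16.1, and APLNR 18.1, 17.6, 16.9, 16.3, 12.8 and 6.16. For STMN2 and HS6ST1 the step from 12 h to 24 h was larger in FPKM than that from 24 h to 48 h, and for APLNR it was smaller. TWIST1 had its largest steps before 24 h, at 64.9, 46.5, 33.6, 24.3, 20.1 and 18.1 FPKM, and MYCN stayed between 893 and 925 FPKM until 24 h before the value of 784 at 48 h. SLC2A1, S1PR3 and IGFBP5 differed from that order: their means at 24 h, 38.9, 6.46 and 32.8 FPKM, were close to those at 12 h, 37.8, 6.60 and 37.8.

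**Figure D5:**
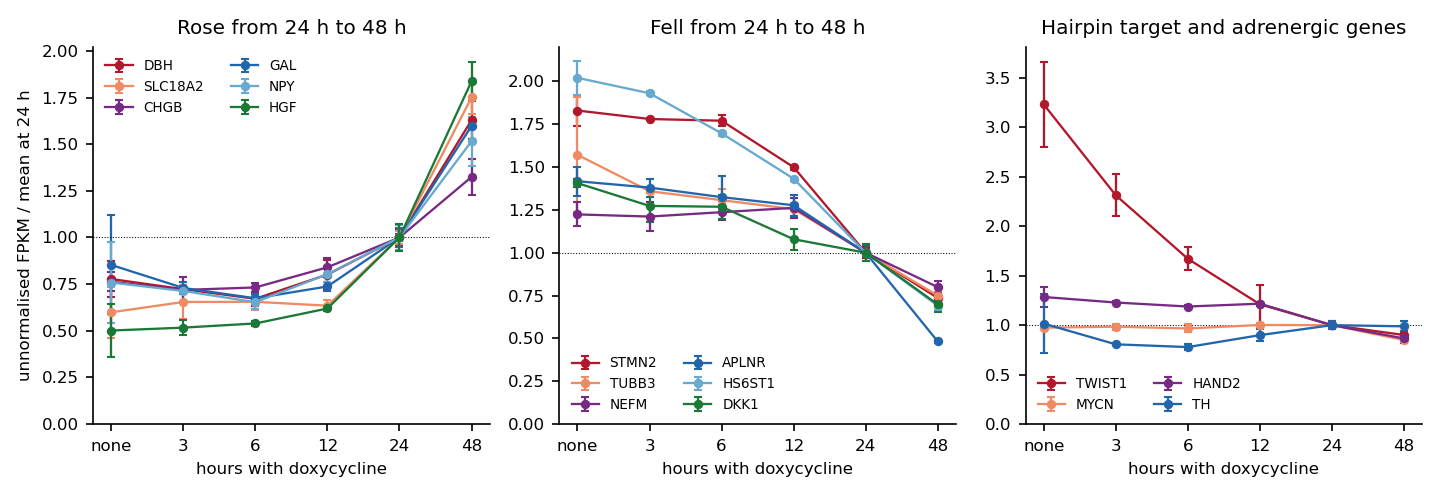
Mean ± SD of 3 libraries for unnormalised FPKM divided by the mean at 24 h (vertical, from 0; dotted line at 1), by hours with doxycycline (evenly spaced, not to scale), for genes that rose, genes that fell and the hairpin target with adrenergic genes (MYCN, HAND2, TH). The rising genes leave their early level after 12 h and the falling genes continue a fall begun by 24 h, while TWIST1 has fallen before 24 h; on rescaled values every gene drawn has a lower mean at 48 h than at 24 h.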

How the data were processed

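RNA of BE(2)-C cells with an inducible TWIST1 hairpin was measured by polyA RNA sequencing in 3 libraries at 24 h and 3 at 48 h. The authors deposited FPKM values in an unnormalised table and a table rescaled to ERCC spike-ins. HISAT, Cufflinks 2.0.0 and hg19 are named in the submitters' processing notes. How the rescaling was done is stated in none of these sources. The tables hold no counts, so the depth is unknown. Column numbers 0 to 2 do not match the replicate numbers of the titles, which start at 1, and are used here only to name libraries. The 40 columns of another cell line's tables were not used.

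Genes with a mean unnormalised FPKM of at least 1 over the 18 libraries were tested with limma 3.58.1 in R 4.3.3 on log2(FPKM + 1), with a variance trend and Benjamini-Hochberg adjustment over all tested genes, at 0.05. All 18 libraries of the hairpin experiment entered the fit and shared 1 estimate of spread. Fold changes on this scale understate the change of low genes. The scales were rescaled values, rescaled values minus the library median (centred), and unnormalised values. The method was tested on simulated data for the rescaled and centred scales, with independent noise for each gene and library. The unnormalised scale was not simulated, and neither was a shift shared by all genes of a library.

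The rule for named genes took the largest changes, 10 each way on the spike-in scale and 15 on the centred scale, with an adjusted p under 0.05 and groups that do not overlap, without small or uncharacterised RNAs. The centred choice also asked for a mean of at least 5 FPKM in a group. TWIST1 and MYCN were given whatever their p, and so were the adrenergic factors except 2 of the 12 tested. A few genes falling under this rule are left out of the text. List members called on the centred scale are mostly given as counts. The 20 largest changes each way on unnormalised values, and the list members named there, were added after values had been seen. The members and gene lists were chosen with earlier results of these data known. Alternatives were another pseudocount, filters, the libraries in the fit, a replicate block, no variance trend, quantile normalisation and leaving out each library. RefSeq promoter sequences on GRCh38.p14 were searched for E-boxes.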

Additional observations from a re-analysis of the deposited data

How the results depend on the processing

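The fall relative to the spike-ins held in each alternative that kept the rescaled table. Its median was −0.85 to −1.32 over pseudocounts and filters and −1.44 to −0.91 with 1 library left out. On unnormalised values the median was −0.0014, but these are scaled within each library and cannot show a fall of all genes. The log2 ratio of spike-in totals was 1.14 to 1.78 with 1 library left out. Genes lower on the spike-in scale numbered 7520 to 10872 with 1 library left out, 831 after centring and 210 on unnormalised values, and list members lower 552 to 693, 105 and 25. Genes higher numbered 12 to 20 with 1 library left out, 154 on unnormalised values, 1801 after centring, 23 with a pseudocount of 0.1, 2 without a filter, 24 with a filter of 5 FPKM, 53 with the 6 libraries alone and 28 without the no-doxycycline library numbered 1. List members higher numbered 16 on unnormalised values and 69 after centring.

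On the centred scale 1801 higher and 831 lower genes became 154 and 210 on unnormalised values, 261 and 383 with quantile normalisation, 138 and 139 with a pseudocount of 0.1, 7493 and 6235 without a filter, 170 and 214 with a filter of 5 FPKM and 3242 and 2657 without the no-doxycycline library numbered 1. With the 6 libraries alone 2196 were lower. List members went from 69 and 105 to 16 and 25, 27 and 40, 11 and 21, 175 and 487, 17 and 38, and 115 and 296 in the same order, and 257 were lower with the 6 libraries alone. With 1 library left out there were 143 to 2411 higher and 111 to 1090 lower genes, and 11 to 82 and 18 to 149 list members. The lowest counts were those without the 48 h library numbered 2 and the highest those without the 48 h library numbered 1.

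On unnormalised values 154 higher genes became 94 with a filter of 5 FPKM. They became 612 with the 6 libraries alone and 981 without the no-doxycycline library numbered 1, where 210 lower genes became 714 and 1233. List members went from 16 higher to 10, 73 and 104, and from 25 lower to 69 and 99 in the last 2 settings. With 1 library left out the counts were 46 to 62 higher and 58 to 102 lower, and 6 to 9 and 4 to 13 for list members. Leaving out any of the 6 lowered each of these counts. Of 79 genes named above as called on unnormalised values, 27 were called in all 6 of these fits, 27 in none and 76 with the 6 libraries alone. GATA3 and PHOX2A, lower on the spike-in scale, had changes of 0.028 and 0.12 on unnormalised values, and LMO1 0.034 there and 0.56 after centring. The cause of these differences was not tested.

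Deviations of same-numbered libraries from their group means correlated at 0.056, 0.15 and 0.002 on rescaled and 0.046, 0.11 and −0.049 on unnormalised values. For the other pairs the correlations ran from −0.12 to 0.073 and from −0.11 to 0.060. So few pairs cannot show whether same-numbered libraries belong together, and the labels do not say. With the number as a replicate block the counts were 12 higher and 10812 lower on the spike-in scale, 1841 and 933 on the centred scale, and 134 and 174 on unnormalised values. Without counts, the precision that sequencing depth gives to low genes is not known.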
